A study of Mus musculus with 4 samples.

Results

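Tal1, Lyl1, Lmo2, Ldb1, Hhex, Meis1, Myb, Gfi1, Gfi1b and Tcf3 encode regulators of blood stem cells, and the RUNX1 ChIP-seq peaks at these 10 of 21911 protein-coding mouse genes are described here. A peak was counted for a gene when its summit lay inside the gene body or within 50 kb of it, and peaks of the 2 RUNX1 libraries were joined into sites. The 10 genes had 64 of the 24972 RUNX1 sites of the series. The peak lists held 45 of these genes' peaks in the RUNX1 library labelled -DOX and 59 in the one labelled +DOX, and 4 and 7 in the H3K27me3 libraries titled untr and DOX.

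The cells were hematopoietic progenitors that float off cultures of mouse embryonic stem cells (ESCs), taken at day 2. All 4 libraries came from ESCs of the genotype Tet-on dominant-negative FOS, in which Doxycycline (DOX) switches on dnFOS, a peptide that pairs with JUN proteins and keeps the transcription factor AP-1 from binding DNA. The control without DOX therefore carries the transgene too, and the comparison asks where RUNX1 binding changes when AP-1 is blocked. RUNX1 was measured in 1 library labelled +DOX and 1 labelled -DOX, so no difference between them has a replicate check and no test was made. The run names written inside these peak lists state the opposite treatments. The libraries are therefore named by label only, and every direction between them turns if the labels are wrong. Both H3K27me3 libraries have a title that contradicts their treatment label and were put in no condition. H3K27me3 is the antibody in their labels, but the protocol text mentions an anti-RUNX1 antibody alone.

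RUNX1 is needed for blood cells to arise from hemogenic endothelium. TAL1 and LYL1 are related basic helix-loop-helix proteins that bind E-boxes together with E proteins such as E2A, the product of Tcf3, and LMO2 and LDB1 bridge them to GATA factors bound nearby, so that E-box and GATA sequences often lie side by side where the complex sits. GFI1 and GFI1B are zinc finger repressors that silence endothelial genes in newly formed blood cells. HHEX and MEIS1 are homeodomain proteins of early endothelium and blood stem cells, and MYB is required for definitive blood formation.

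The DNA at a choice of sites that ranked high in both lists is shown first. Not every site that ranked as high is included, and the one 199 bp into Lyl1, for example, is left out. Each run is 200 bp of mm10 centred on the summit of the library in which the site ranked higher, written along the + strand, while Gfi1, Gfi1b, Meis1, Myb, Ldb1 and Tcf3 are transcribed from the other strand. Distances are from the 5′ end of the gene in GENCODE M21, counted along its transcription. Capitals mark every base within a match to 1 of 8 motifs searched on both strands. RUNX was searched as TGTGGT, and also as TGCGGT. ETS was CAGGAAG. Its other form was CCGGAAG. The GATA motif was AGATAA. The E-box was CAGCTG, and also CAGATG. AP-1 was TGACTCA. PU.1 was GAGGAAGT. C/EBP was TTGCNNAA, where N is any base. The E-box with GATA is the last bases of an E-box (CTG), then 8 or 9 bases of any kind, and then a GATA core followed by A. PU.1 belongs to the ETS family and its letters share GGAA with ETS, and the E-box with GATA can overlap a GATA or an E-box match.
Tal1 +39.5 kb, chr4:115095810-115096009, + strand: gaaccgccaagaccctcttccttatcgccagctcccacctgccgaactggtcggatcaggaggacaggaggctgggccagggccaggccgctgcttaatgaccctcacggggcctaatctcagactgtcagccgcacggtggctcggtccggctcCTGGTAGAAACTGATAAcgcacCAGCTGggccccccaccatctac
Gfi1b +22.5 kb, chr2:28599341-28599540, + strand: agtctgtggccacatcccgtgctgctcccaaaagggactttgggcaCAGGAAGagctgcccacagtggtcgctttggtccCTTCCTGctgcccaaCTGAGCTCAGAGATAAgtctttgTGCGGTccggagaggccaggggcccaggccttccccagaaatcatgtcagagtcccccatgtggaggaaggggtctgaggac
Gfi1b +23.7 kb, chr2:28598172-28598371, + strand: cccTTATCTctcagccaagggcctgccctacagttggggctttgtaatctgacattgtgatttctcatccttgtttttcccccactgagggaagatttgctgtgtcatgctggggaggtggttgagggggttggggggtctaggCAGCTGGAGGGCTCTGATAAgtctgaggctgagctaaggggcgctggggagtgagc
Gfi1 -33.3 kb, chr5:107759200-107759399, + strand: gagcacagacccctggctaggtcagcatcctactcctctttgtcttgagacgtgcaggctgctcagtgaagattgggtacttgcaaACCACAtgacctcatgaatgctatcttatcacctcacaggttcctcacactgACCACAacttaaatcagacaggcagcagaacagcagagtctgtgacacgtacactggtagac
Lyl1 +2.1 kb, chr8:84703462-84703661, + strand: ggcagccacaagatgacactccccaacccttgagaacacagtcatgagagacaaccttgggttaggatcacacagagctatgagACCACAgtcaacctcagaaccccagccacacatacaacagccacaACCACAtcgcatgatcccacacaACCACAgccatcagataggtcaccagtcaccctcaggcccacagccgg
Hhex +1.0 kb, chr19:37435680-37435879, + strand: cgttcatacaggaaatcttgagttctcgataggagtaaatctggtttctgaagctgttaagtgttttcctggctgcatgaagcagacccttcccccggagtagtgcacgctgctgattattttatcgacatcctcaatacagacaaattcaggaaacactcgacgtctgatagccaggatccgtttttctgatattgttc

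Tal1 +39.5 kb and both Gfi1b sites contain a match to the E-box with GATA, whose centre is 63, 3 and 55 bp from the summit. The search asked only for the CTG of an E-box. At Tal1 +39.5 kb the bases before that CTG are ctc, so this match does not hold a whole E-box. Gfi1 -33.3 kb has RUNX letters at 2 places and Lyl1 +2.1 kb at 3. Gfi1b +22.5 kb has RUNX, ETS, GATA and E-box with GATA letters in the same window, whereas no motif was found in the 200 bp at Hhex +1.0 kb. A match describes letters in the reference genome and does not show which factor was bound.

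The next sequences are from sites that were called in 1 library only or that ranked differently in the 2 lists. The first 6 ranked higher under the label +DOX or were called under it only, and the last 3 ranked lower under it. RUNX letters are present at Lmo2 -12 kb, Myb -46.6 kb, Gfi1b +30.3 kb and Meis1 -1.5 kb, and PU.1 and GATA letters at both intronic Meis1 sites.
Lmo2 -12 kb, chr2:103945875-103946074, + strand: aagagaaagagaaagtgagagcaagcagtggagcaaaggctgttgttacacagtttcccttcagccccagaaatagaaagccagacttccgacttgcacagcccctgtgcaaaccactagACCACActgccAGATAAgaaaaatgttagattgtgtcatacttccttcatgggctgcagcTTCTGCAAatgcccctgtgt
Lmo2 -10.9 kb, chr2:103946954-103947153, + strand: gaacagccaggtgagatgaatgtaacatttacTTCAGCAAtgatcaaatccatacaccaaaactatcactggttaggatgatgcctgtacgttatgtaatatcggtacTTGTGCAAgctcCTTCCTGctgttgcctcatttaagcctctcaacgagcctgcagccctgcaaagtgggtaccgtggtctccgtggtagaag
Meis1 +48.8 kb, chr11:18970074-18970273, + strand: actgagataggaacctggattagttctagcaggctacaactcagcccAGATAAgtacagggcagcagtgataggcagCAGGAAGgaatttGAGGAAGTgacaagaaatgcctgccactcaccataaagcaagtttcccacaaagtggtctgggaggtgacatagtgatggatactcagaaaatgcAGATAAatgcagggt
Meis1 +93.9 kb, chr11:18924971-18925170, + strand: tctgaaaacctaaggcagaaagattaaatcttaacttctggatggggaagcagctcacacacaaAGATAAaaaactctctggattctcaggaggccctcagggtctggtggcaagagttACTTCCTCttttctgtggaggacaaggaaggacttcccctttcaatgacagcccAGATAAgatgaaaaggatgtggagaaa
Myb -46.6 kb, chr10:21207469-21207668, + strand: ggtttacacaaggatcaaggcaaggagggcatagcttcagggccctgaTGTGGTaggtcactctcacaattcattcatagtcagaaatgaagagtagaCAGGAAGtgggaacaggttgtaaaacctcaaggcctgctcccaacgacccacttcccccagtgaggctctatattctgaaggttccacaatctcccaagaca
Gfi1b +30.3 kb, chr2:28591571-28591770, + strand: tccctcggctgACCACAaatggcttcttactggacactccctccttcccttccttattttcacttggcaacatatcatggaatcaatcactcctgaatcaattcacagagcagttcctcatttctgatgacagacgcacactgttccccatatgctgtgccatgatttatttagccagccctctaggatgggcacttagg
Tal1 +15.5 kb, chr4:115071869-115072068, + strand: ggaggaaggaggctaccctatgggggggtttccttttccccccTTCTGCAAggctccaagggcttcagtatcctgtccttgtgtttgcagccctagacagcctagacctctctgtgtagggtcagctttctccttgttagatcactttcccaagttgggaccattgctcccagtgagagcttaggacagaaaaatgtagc
Lmo2 +24.5 kb, chr2:103982391-103982590, + strand: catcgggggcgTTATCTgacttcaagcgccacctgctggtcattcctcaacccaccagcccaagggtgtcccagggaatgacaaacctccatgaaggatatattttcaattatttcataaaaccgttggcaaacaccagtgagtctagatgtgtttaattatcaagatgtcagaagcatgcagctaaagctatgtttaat
Meis1 -1.5 kb, chr11:19020428-19020627, + strand: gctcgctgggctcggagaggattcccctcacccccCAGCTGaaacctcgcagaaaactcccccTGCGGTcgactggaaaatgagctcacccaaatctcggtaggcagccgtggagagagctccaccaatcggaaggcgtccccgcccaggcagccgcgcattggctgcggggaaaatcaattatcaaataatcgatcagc

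Strength was read as the percentile of a peak's -log10 q among all peaks of its own list, where 100 is the strongest, because the depth of the libraries is unknown. The fold given beside it is the enrichment over the local background in the same library. The list of the library labelled -DOX held 18389 peaks with a median -log10 q of 8.20, and that of the library labelled +DOX 21831 with a median of 8.67.

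Every one of the 10 genes had a site called in both lists, a property shared by 69.4% of all protein-coding genes. The 10 genes had a median of 6.50 sites, against 3 for all protein-coding genes. These counts include sites that lie nearer to another gene. Lyl1 had the most with 13 and Tcf3 followed with 8. Tal1, Lmo2 and Gfi1b had 7 sites each and Meis1 had 6. Ldb1 and Hhex had 5 each, Gfi1 had 4 and Myb had 2. The windows differed in length, since the body of Meis1 spans 139 kb and that of Lyl1 3.26 kb, and per 100 kb of window the range was from 1.47 sites at Myb to 12.6 at Lyl1.

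**Figure D1:**
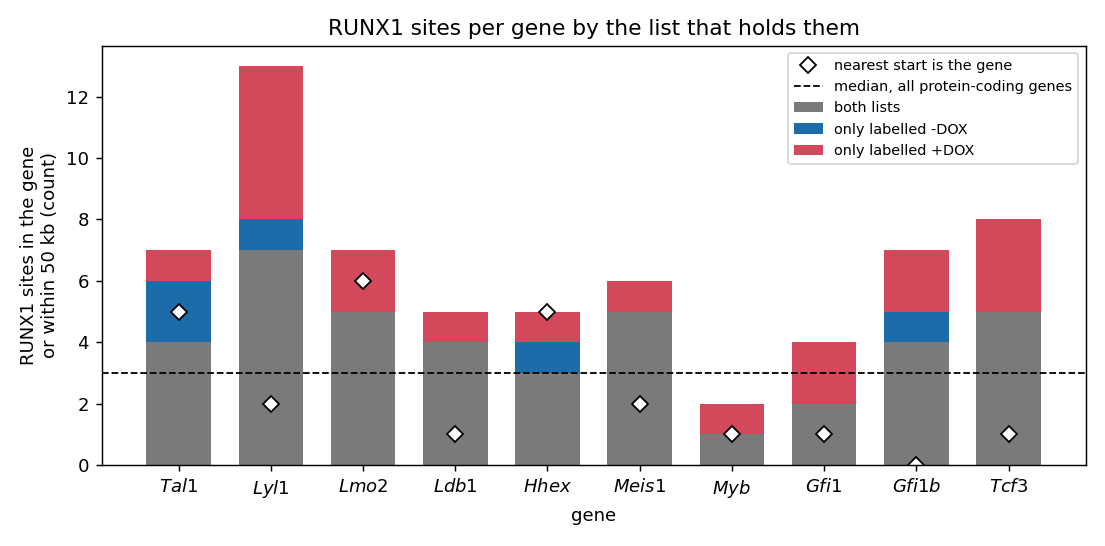
Number of RUNX1 sites in the body of each gene or within 50 kb of it (vertical axis), stacked by the list that holds them: grey for both, blue for only the library labelled -DOX and red for only the library labelled +DOX. Diamonds count the sites whose nearest annotated start is the gene itself, from 0 at Gfi1b to 6 at Lmo2, and the dashed line is the median of 3 sites over all protein-coding genes.

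Many of these sites lie nearer to another gene. Only 24 of the 64 had the gene itself as nearest transcription start among all annotated transcripts. The share was 6 of 7 sites at Lmo2, 5 of 7 at Tal1 and 5 of 5 at Hhex, but 2 of 13 at Lyl1, 1 of 8 at Tcf3, 1 of 5 at Ldb1 and 0 of 7 at Gfi1b. Several were promoters of neighbouring genes. At Ldb1, for example, 4 of the 5 sites lay within 84 bp of the start of Nolc1, Pprc1, Hps6 or Armh3. With protein-coding starts only, 35 of the 64 sites were nearest to the gene, including 4 of 4 at Gfi1 and 6 of 6 at Meis1.

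At 9 of the 10 genes a site within 1500 bp of one of the gene's own annotated starts was in both lists, against 39.1% of all protein-coding genes. Gfi1b was the exception. Distal sites, those farther than 1500 bp from every start, made up 32 of the 64 sites (50%, 95% Wilson interval 38.1 to 61.9), beside 46.1% of all sites. This interval and those that follow cover counting over sites only.

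Sites in the top 5% of both lists were found at Tal1, Gfi1 and Gfi1b. That is 3 of the 10 genes, and the same holds for 7.80% of all protein-coding genes. The limit was set after values were seen and the genes were chosen with earlier results known, so the 2 shares are descriptive only. Lyl1 +2.1 kb was just outside that limit, at percentiles 94.5 and 96.1.

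The strongest of the 64 sites under the label -DOX, and the next to strongest under +DOX after Gfi1b +22.5 kb, was Gfi1 -33.3 kb. It lies in an intron of Evi5, and the nearest annotated start is that of A430072P03Rik, which is 32902 bp away. Under the labels -DOX and +DOX its fold was 18.1 and 17.6 and its -log10 q 110 and 90.5. These values put it at percentiles 99.4 and 99.0. Its 2 runs of RUNX letters are the capitals in the sequence above. The promoter of Gfi1 itself was weak by comparison, with a site at -0.1 kb at percentiles 38.8 and 5.75. A further 2 sites, at -23.7 and -12 kb, were called under the label +DOX only, at percentiles 13.6 and 31.8.

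At Tal1 the strongest site was 39.5 kb downstream of the gene start, past the end of the gene and 4978 bp from the start of Pdzk1ip1. Its fold was 15.6 in both libraries, with -log10 q of 92.2 and 85.3 for the labels -DOX and +DOX. Its position is 516 bp from the nominal +40 element, one of the blood enhancers of Tal1 that are named by their distance from the promoter in kb. The percentiles of 99.0 and 98.8 make it one of the sites that ranked alike in both lists. The Tal1 promoter site, 267 bp into the gene, was at percentiles 88.7 and 92.5, and the summits of the 2 libraries fell on the same base.

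The other Tal1 sites were weaker and less alike. The site 6.7 kb into the gene, in a coding exon, was at percentile 61.9 under the label -DOX and 23.7 under +DOX. The site at 15.5 kb, just past the end of the gene, was at 56.9 and 6.37, a difference of -50.5 points and the lowest among the 40 sites in both lists. The -4 enhancer, active in endothelium and early blood, had a site 374 bp from its nominal position, found under the label -DOX only with a -log10 q of 4.97 (percentile 23.6). No site lay within 2 kb of the nominal +19 stem cell enhancer, and the nearest was 3457 bp away. Sites in 1 list only were also called at 1.1 kb (labelled +DOX, percentile 10.2) and at 47.4 kb (labelled -DOX, percentile 13.7).

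Gfi1b had its 2 strongest sites next to each other downstream of the gene, at 22.5 and 23.7 kb. The first had a -log10 q of 85.7 under the label -DOX and 93.2 under +DOX (percentiles 98.8 and 99.1). The second had 46.1 and 45.1, which is percentile 95.3 in each list. Counted from another annotated start of Gfi1b, at position 28615405 of chromosome 2, they lie at 15.96 and 17.13 kb, within 36 and 133 bp of the nominal +16 and +17 enhancers. From the same start the nominal +13 enhancer is 48 bp from a site found under the label -DOX only, with a -log10 q of 7.35 (percentile 44.3). Counted from the gene start instead, the site nearest to +16 and +17 is a weak one at 15.3 kb, called under the label +DOX only at percentile 4.23, which is 702 and 1702 bp away. Which start the names refer to is not given in the sources used here. The remaining 2 sites in both lists were at the promoter of Tsc1 (60.9 and 44.2) and in a coding exon of Gtf3c5, 53 bp from its start (77.9 and 60.8).

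Lyl1 lies in a gene-dense stretch, and its 13 sites include promoters of Ier2, Nacc1, Trmt1 and Nfix. The 2 sites nearest to Lyl1 itself were strong in both lists. The one 199 bp into the gene was at percentiles 93.0 and 96.6 for the labels -DOX and +DOX, and the intronic one at 2.1 kb was at 94.5 and 96.1. The first has an E-box with GATA in its 200 bp and the second the 3 runs of RUNX letters shown above. The strongest site in the list labelled +DOX, with a -log10 q of 64.9 there and 33.4 in the other, lay 37.4 kb upstream of Lyl1. Another 6 of the 13 were called in 1 list only, all at or below percentile 33.7.

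**Figure D2:**
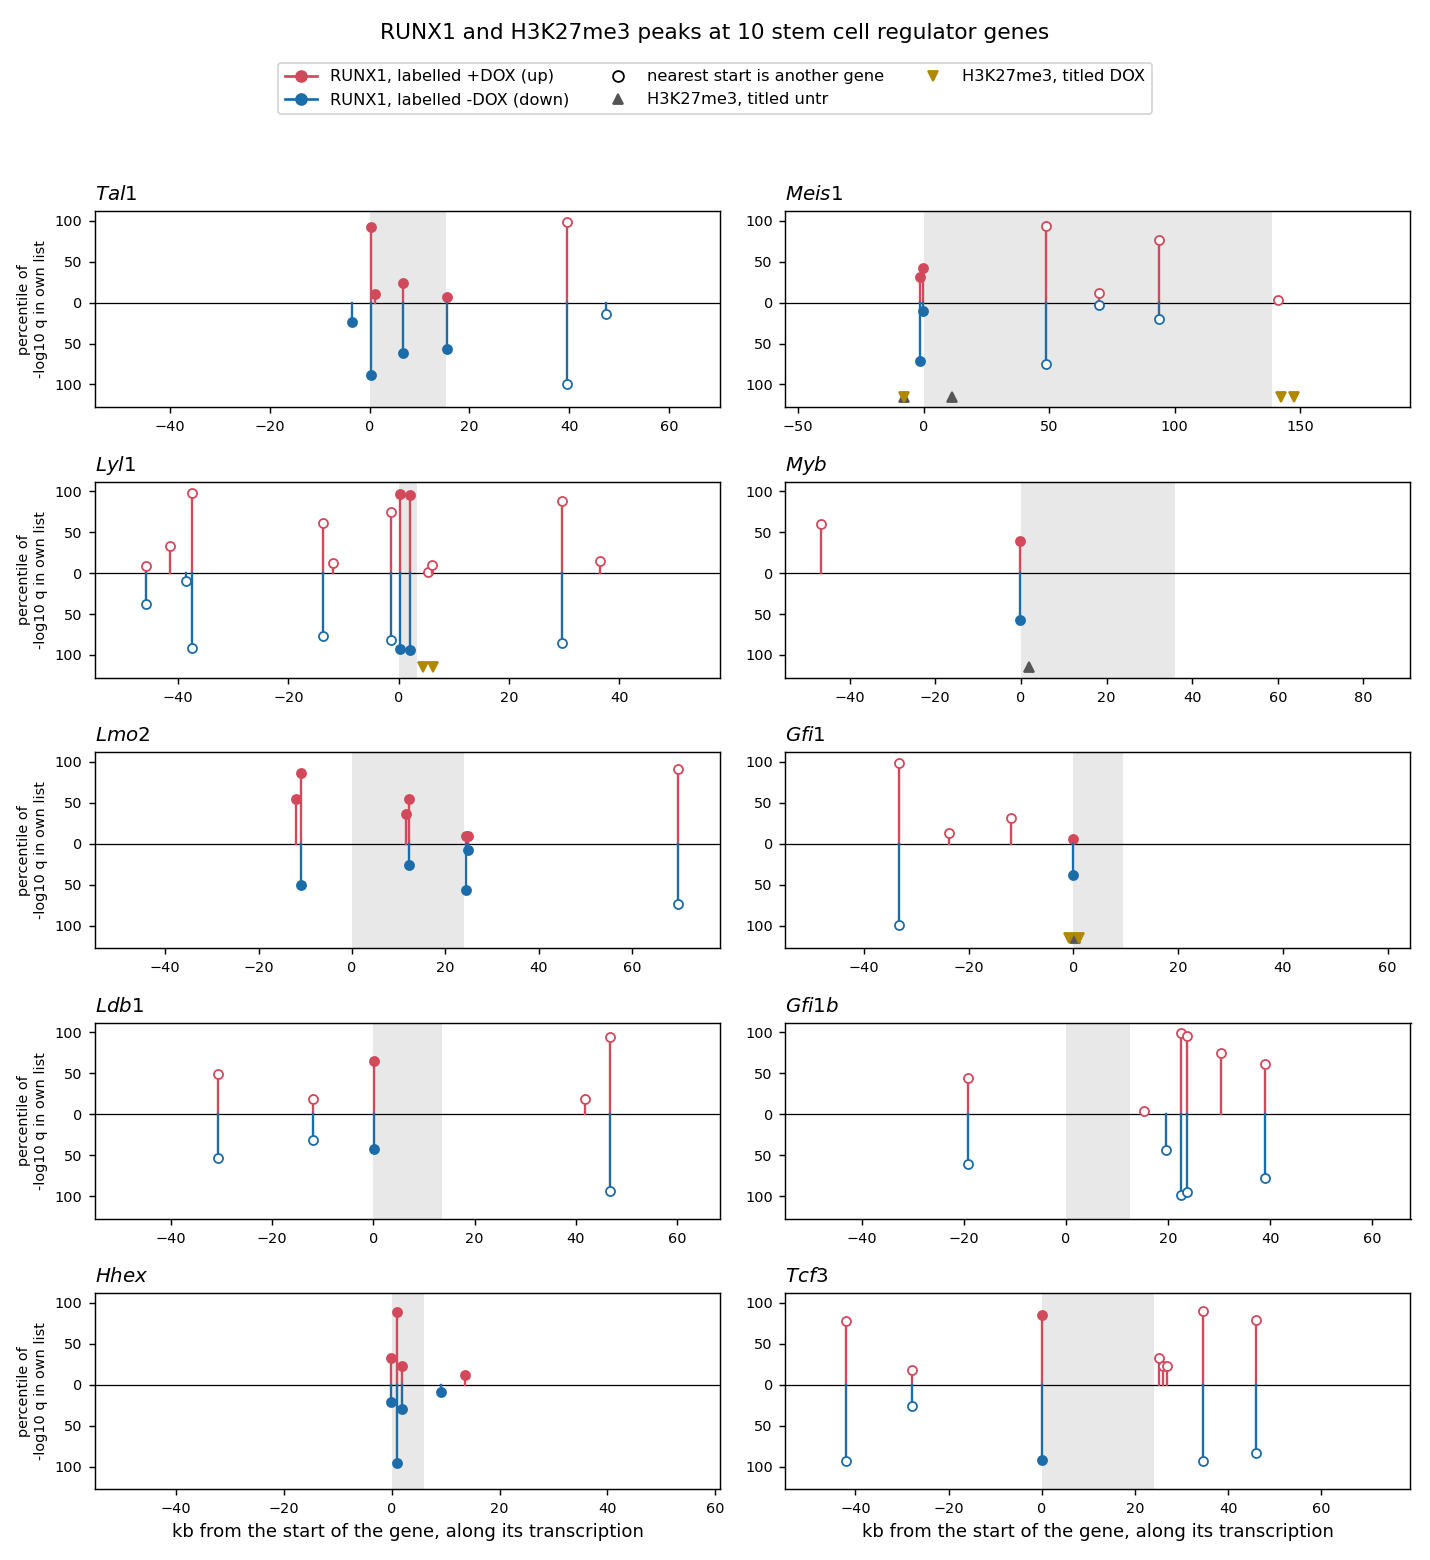
RUNX1 sites along the 10 genes, in kb from the gene start (horizontal axis; grey is the gene body), with the percentile of -log10 q drawn upwards for the label +DOX and downwards for the label -DOX. Open circles are sites nearest to the start of another gene, and triangles at the bottom mark the positions of H3K27me3 peaks without a height. Gfi1 -33.3 kb, Tal1 +39.5 kb and Gfi1b +22.5 kb reach at least percentile 98.8 in both directions.

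Lmo2 showed several sites that ranked higher in the library labelled +DOX. The distal site at -10.9 kb had a fold of 5.39 and a -log10 q of 8.36 in the library labelled -DOX, and 8.66 and 24.4 in the one labelled +DOX. Its percentile was 36.0 points higher in the latter. About 1 kb further upstream, at -12 kb, a site with a -log10 q of 9.37 was called under the label +DOX only (percentile 54.1). That position is 11 bp from -12 kb counted from the gene start and 204 bp from -25 kb counted from another annotated start, and both numbers are names of Lmo2 enhancers, so the names alone do not settle which one it is.

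An internal start of Lmo2, 12.3 kb into the gene, had a site in a UTR that was at percentiles 25.7 and 54.6, and just upstream of another start a site was called under the label +DOX only (36.1). Counted from internal starts, the first was 262 bp from the nominal +1 element and the second 1280 bp from the nominal -3 element. Counted from the gene start, no site lay within 2 kb of either. The site at 24.5 kb ranked lower under the label +DOX, with 56.8 and 9.06, and its neighbour at 24.9 kb was at 8.27 and 8.80. The strongest site in the window, at 69.7 kb with percentiles 74.0 and 91.6, was the promoter of Fbxo3. Outside the 50 kb window, a site in both lists lay at -75.60 kb from an annotated Lmo2 start and 599 bp from the nominal -75 enhancer, at percentiles 77.9 and 37.5.

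Both of the stronger intronic sites of Meis1 ranked higher in the library labelled +DOX. The site 48.8 kb into the gene had a fold of 7.46 and 12.4 and a -log10 q of 15.3 and 36.8 for the labels -DOX and +DOX (percentiles 74.8 and 93.2). The site at 93.9 kb had a fold of 4.32 and 7.19 and a -log10 q of 4.56 and 16.6, at percentiles 19.6 and 76.8. This difference of 57.2 points was the highest of the 40. However, it compares summits that lay 292 bp apart and were joined by the extension of 200 bp. The sequence shown covers only the summit of the library labelled +DOX. Another intronic site, at 69.9 kb, was near the bottom of both lists at 2.32 and 11.2, and the site at 141.1 kb, found under the label +DOX only, was at 2.76. At the Meis1 start the pattern was mixed. The site 12 bp upstream was at 10.6 and 42.9, and the one 1.5 kb upstream at 71.0 and 31.1.

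Hhex had all of its 5 sites nearest to itself. The strongest lay 970 bp from the gene start, 30 bp from the nominal +1 element, with a -log10 q of 48.5 under the label -DOX and 27.4 under +DOX (percentiles 95.7 and 89.0). The sites 64 bp upstream of the start (20.9 and 32.7) and 1.8 kb into the gene (29.7 and 23.1) were weaker in both lists. Those at 9.1 and 13.7 kb were called in 1 list each, labelled -DOX at 8.89 and labelled +DOX at 12.1.

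Myb had the fewest sites. Its promoter site, 122 bp upstream of the start, was at percentile 57.7 under the label -DOX and 39.3 under +DOX. The other site, at -46.6 kb in an intron of Gm33728, was called under the label +DOX only with a fold of 6.41 and a -log10 q of 10.7 (percentile 60.1). No site lay within 2 kb of the nominal -36 enhancer of Myb, from which this site was 10585 bp away.

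Ldb1 and Tcf3, which encode the widely expressed partners of the complex, had a promoter site of their own in both lists. Tcf3 was at percentiles 92.1 and 85.6 and Ldb1 at 42.5 and 65.6 for the labels -DOX and +DOX. The strongest sites in their windows were promoters of neighbours, Armh3 for Ldb1 (93.5 and 94.0) and, for Tcf3, a site near the start of Gm25044 (93.8 and 77.5) and the intron of Mbd3 (92.8 and 90.1). Past the end of Tcf3, 3 sites between 25.2 and 26.8 kb, near Uqcr11, were called under the label +DOX only, at percentiles from 22.3 to 32.3.

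Across the 10 genes, 40 of the 64 sites were in both lists (62.5%, 50.3 to 73.3), beside 56.8% of all sites of the series. Sites only in the library labelled -DOX numbered 5 (7.81%, 3.38 to 17), beside 14.8% of all sites. Those only in the library labelled +DOX numbered 19 (29.7%, 19.9 to 41.8), beside 28.4%. All 3 intervals contain the share of the whole series. With the labels exchanged, 19 sites would be in the -DOX list only and 5 in the +DOX list only.

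Sites in 1 list only ranked lower than those in both, here as in the whole series. Their median percentile was 13.7 for the 5 and 18.9 for the 19, against 77.6 for the 40 sites in both lists, taken in the list where each ranked higher. Sites in both lists thus give the higher of 2 values and the others their only value, which favours the former. Over all sites of the series the same medians were 23.1, 27.1 and 70.5. Of the 24 sites in 1 list, 2 reached a -log10 q of 10, beside 11.5% of all such sites, and both were in the list labelled +DOX. One was Myb -46.6 kb. The other was Gfi1b +30.3 kb, with a fold of 7.33 and a -log10 q of 15.5 (percentile 74.5). None of the 24 sites had an overlapping peak in the other list.

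Among the 40 sites in both lists, the percentile was higher by at least 25 points in the library labelled +DOX at 4 (10%, 3.96 to 23.1), beside 15.1% of all 14177 such sites. They were Lmo2 -10.9 kb and +12.3 kb, Meis1 +93.9 kb and the Meis1 site 12 bp upstream of the start. It was lower by at least 25 points at 6 (15%, 7.06 to 29.1), beside 7.91% of all such sites. These were Tal1 +6.7 and +15.5 kb, Lmo2 +24.5 kb, Meis1 -1.5 kb, the Gfi1 promoter and a site 45.7 kb upstream of Lyl1. Over the 40 sites the median difference was -1.55 points, against 1.83 over all sites in both lists, where the middle 90% ran from -31.6 to 41.8. The summits of the 2 libraries were a median of 48.0 bp apart at the 40 sites, 292 bp at Meis1 +93.9 kb and 298 bp at most.

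**Figure D3:**
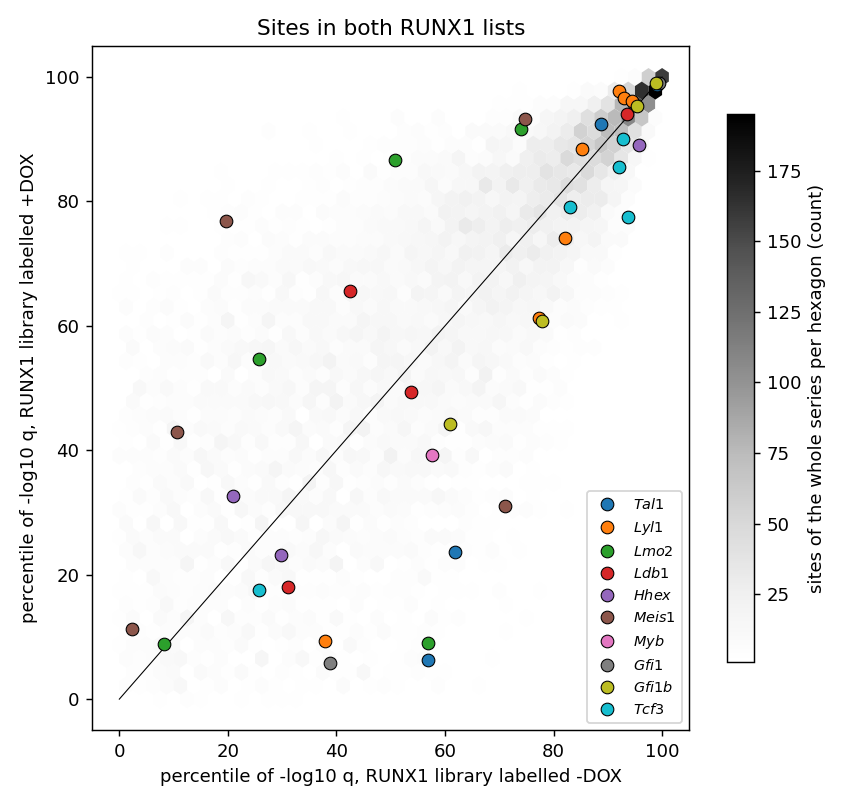
Percentile of -log10 q under the label -DOX (horizontal) and under the label +DOX (vertical) for the 40 sites in both lists at the 10 genes (coloured points), over the 14177 such sites of the series (grey hexagons, darker for more sites). Points above the line of equal percentiles ranked higher in the library labelled +DOX. Meis1 +93.9 kb, at 19.6 and 76.8 and with summits 292 bp apart, is the farthest above it. Tal1 +15.5 kb, at 56.9 and 6.37, is the farthest below.

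The farthest sites inside the 50 kb window were at Myb (46.6 kb from the gene body, percentile 60.1) and at Lmo2 (45.8 kb, 91.6). The nearest outside the window were at Lmo2 and Tcf3, both 51.2 kb away at percentiles 61.3 and 7.23, and at Tal1 (52.0 kb, 46.2), all called in 1 list only.

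H3K27me3, a histone mark of genes silenced by Polycomb, was called at 4 of these genes in all, Lyl1, Meis1, Myb and Gfi1. The library titled untr had peaks at 3 of the 10 genes, beside 33.2% of all protein-coding genes, and the library titled DOX also at 3, beside 35.2%. Meis1 had 2 peaks in the former and 3 in the latter, and the only place called in both had summits at -7.77 and -7.74 kb. Gfi1 had 1 peak of the library titled untr in its coding sequence, 374 bp from the gene start, and 2 of the library titled DOX. Myb had 1 intronic peak titled untr at 1.91 kb. The 2 peaks in the Lyl1 window, titled DOX, were in the UTR of Nfix.

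These H3K27me3 peaks had a -log10 q of at most 7.39, which is percentile 57.4 of its list, and widths from 74 to 182 bp. None of the 64 RUNX1 sites overlapped one, whereas 7.76% of all RUNX1 sites did. The Wilson interval for 0 of 64 is 0 to 5.66%, and the limit of 3 counts of 64 is 4.69%, both for counting error only. The closest lay 229 bp from a RUNX1 summit, in the UTR of Nfix (titled DOX), and the next closest 509 bp from one, in Gfi1 (titled untr).

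**Figure D4:**
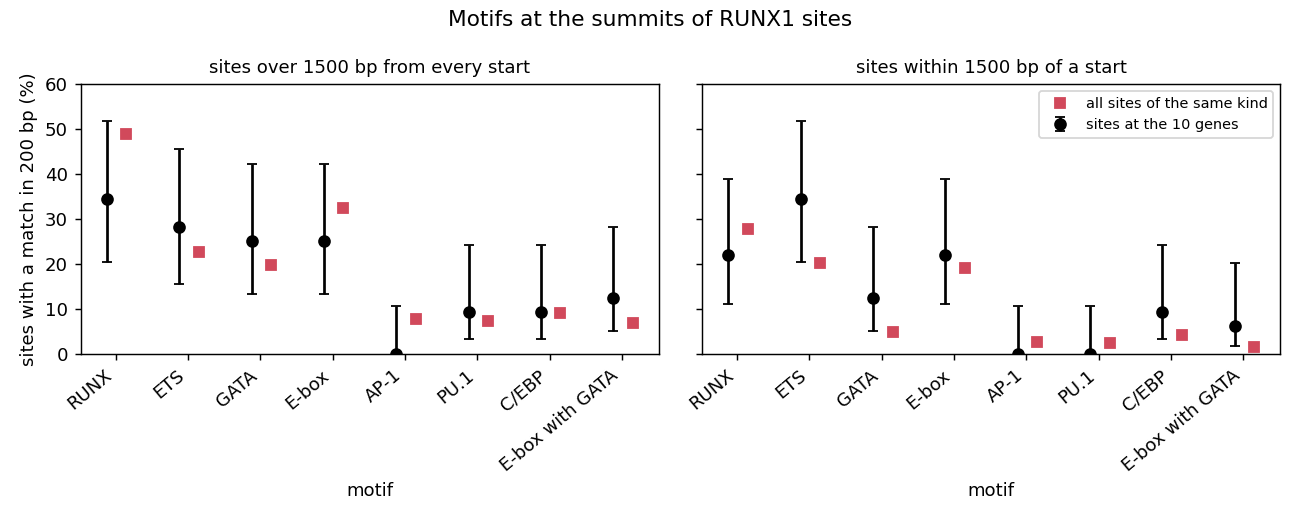
Share of RUNX1 sites with each of the 8 motifs in the 200 bp at the summit (vertical axis, %), for distal sites (left) and sites within 1500 bp of a start (right). Black points are the 32 sites of each kind at the 10 genes with 95% Wilson intervals and red squares all sites of the same kind; for RUNX, distal, these are 34.4% and 48.8%.

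The letters at the 64 sites were counted in the same way as in the sequences shown. RUNX was present at 18 (28.1%, 18.6 to 40.1), beside 37.4% of all sites, and ETS at 20 (31.2%, 21.2 to 43.4), beside 21.3%. GATA was at 18.8% (11.1 to 30.0), beside 11.7%, and E-box at 23.4% (14.7 to 35.1), beside 25.2%. PU.1 was at 4.69%, beside 4.66%, and C/EBP at 9.38%, beside 6.46%. Over the 64 sites the interval contains the share of all sites for these 6 motifs. At the 32 sites within 1500 bp of a start it did not for ETS (34.4%, 20.4 to 51.7, beside 20.1%) and GATA (12.5%, 4.97 to 28.1, beside 4.88%). For both motifs the lower bound is only just above the share of all such sites. The intervals were not adjusted for the number of motifs and kinds of site compared. The ETS sites included the promoters of Ldb1 and of its neighbour Nolc1, and the GATA sites those of Tal1 and Tsc1. Both shares thus mix promoters of the stem cell regulators with promoters of other genes.

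AP-1, the factor that dnFOS blocks, had its letters at 0 of the 64 sites, beside 4.97% of all sites, a share inside the Wilson interval of 0 to 5.66%. At the 32 distal sites the count was also 0, beside 7.71% of all distal sites and with an interval of 0 to 10.7%. The simpler limit for a count of 0, taken as 3 counts of the total, is 4.69% of 64 and 9.38% of 32, so at 64 sites the AP-1 share of all sites lies between the 2 bounds.

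The E-box with GATA was at 6 of the 64 sites (9.38%, 4.37 to 19), beside 4.02% of all sites, just below that Wilson interval. At distal sites alone the interval (4.97 to 28.1) contains the 6.87% of all distal sites. At sites within 1500 bp of a start, 2 of 32 had it, and the interval (1.73 to 20.1) is just above the 1.58% of all such sites. The sites were Tal1 +39.5 kb, Gfi1b +22.5 and +23.7 kb, Tcf3 -42.0 kb, and Lyl1 +0.2 and +29.5 kb. Each was in both lists, as were 56.8% of all sites of the series, and their percentiles ran from 77.5 to 99.1. The share in both lists among all sites with these letters was not counted. PU.1 letters were at 3 sites, Hhex +13.7 kb and Meis1 +48.8 and +93.9 kb. The Meis1 sites ranked higher under the label +DOX, and the weak Hhex site (percentile 12.1) was found under it only. The direction of all sites with PU.1 letters was not counted, so these 3 show no link between letters and label.

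Partners of these proteins were counted by the same window. Of 9 genes of the TAL1 and LDB1 complex (Gata1, Gata2, Runx1, Tcf12, Tcf4, Cbfa2t3, Ssbp2, Ssbp3 and Ssbp4), 9 had a site in both lists, 8 had one at their own promoter and 2, Runx1 and Cbfa2t3, had one in the top 5% of both. The 4 corepressor genes of GFI1 (Kdm1a, Rcor1, Hdac1 and Hdac2) all had a promoter site in both lists, and 0 had one in the top 5%. Among the Id genes, whose products hold E proteins away from DNA, 3 of 4 had a site in both lists and 2 of 4 one at the promoter. H3K27me3 peaks were in the window of 4 of 4 Id genes for the title untr and 3 of 4 for the title DOX. For the same titles they were at 1 and 3 of the 9 complex genes and at 2 and 2 of the 4 corepressor genes. Over all protein-coding genes these shares are the 69.4%, 39.1%, 7.80%, 33.2% and 35.2% given before. The promoter counts of 8 of 9 and 4 of 4 are above the 39.1%. No interval or test was made for counts over so few genes, and the lists were chosen with earlier results known.

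Markers were looked at only as genes with nearby peaks, since no expression was measured. Among blood progenitor genes (Ptprc, Kit, Itga2b and Cd34), 2 of 4 had a site in both lists and only Itga2b had one in the top 5% of both, while Kit had none in its window. Of the pluripotent stem cell genes (Pou5f1, Nanog and Sox2) 2 of 3 had a site in both lists. Endothelial genes (Cdh5, Kdr and Pecam1) had a site in both lists at 3 of 3, with Pecam1 in the top 5%. A promoter site in both lists was found at 1 of 4 blood progenitor, 0 of 3 pluripotent and 2 of 3 endothelial genes. The share of all protein-coding genes was 39.1%. In the same order, H3K27me3 peaks titled untr were at 1, 2 and 2 genes, and those titled DOX at 1, 3 and 1. With 69.4% of all protein-coding genes having a site in both lists, these counts do not identify the cell type.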

How the data were processed

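RUNX1 ChIP-seq was measured in 2 libraries and H3K27me3 in 2, with 1 library per condition at most, and the depth is unknown. The authors aligned the reads to mm10 with Bowtie2 and ran MACS2 on every library by itself, at a q-value threshold of 0.05. The submitters' processing notes list Bowtie2 2.2.9 and MACS2 2.1.1. The Bowtie2 version in the study's methods differs, and no input control is named there. The authors deposited for each peak a ratio, the fold over that library's local background, the -log10 of its p-value and q-value, a score that is the q column times 10 in whole numbers, and the position of the summit. Tag counts per site were not used here. The lists were not compared with blacklisted regions.

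Summits on the autosomes, X and Y were widened by 200 bp in both directions and overlapping intervals were merged into sites, as the methods describe, in Python 3.11.15 with numpy 2.4.6. Figures were drawn with matplotlib 3.10.9. Gene bodies and transcript starts came from GENCODE M21, and sequences were read from the NCBI assembly GRCm38.p6, whose chromosomes are those of mm10. The members and the lists of partners and markers were chosen with earlier results of these data known. One list of partners is not reported here. The 25-point and top 5% limits and the count of enhancer distances from every annotated start were set after values were seen. The sites described were, per gene, the strongest in each list, the promoter site, those within 2 kb of a nominal enhancer position (names from general knowledge of the field), those in 1 list with a -log10 q of at least 10, and every H3K27me3 peak; other sites named were chosen after their values were seen. Shares have Wilson intervals of 95%. As a check of the code alone, the class was right for 100% of 3000 simulated sites placed far apart. Of 400 exact motifs placed in random sequence of A and T, 100% were recovered. Neither value says how often a real site is missed in 1 list or whether a match is bound. The alternatives changed the window, the extension, the q-value limit, the overlap rule, the starts used and the labels.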

Additional observations from a re-analysis of the deposited data

How the results depend on the processing

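The counts of 64 sites, 40 in both lists, 5 only in the library labelled -DOX, 19 only in the one labelled +DOX and 24 nearest to a member, and of 4 and 7 H3K27me3 peaks titled untr and DOX, were set beside 45 values from other settings, of which 23 were within 1.5 times the original. A window of 20 kb gave 3 sites only in the library labelled -DOX. With 100 kb there were 103 sites, 62 in both lists, 12 only labelled -DOX and 29 only labelled +DOX, and 21 H3K27me3 peaks in each of those libraries. An extension of 100 bp gave 9 sites only labelled -DOX. With a -log10 q of at least 5 in every list there were 11 sites only labelled +DOX, 1 H3K27me3 peak titled untr and 0 titled DOX. With at least 10 there were 28 sites, 20 in both lists, 3 only labelled -DOX, 5 only labelled +DOX and 9 nearest to a member, with 0 and 0 H3K27me3 peaks. Exchanging the labels turned 5 and 19 into 19 and 5. Keeping sites with a -log10 q of at least 5 in 1 list or more, a setting added after the data were seen, left 1 site only labelled -DOX and 8 only labelled +DOX. Sharing at least 1 bp as the overlap rule changed no count. No paired analysis was possible because there was 1 library per condition, and for the same reason no library could be left out. The depth is unknown, so the rate at which a site is missed in 1 list cannot be given.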
